A study of Mus musculus with 15 samples.

Results

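Large dorsal root ganglion neurons from control mice were compared between those that make CGRP and project to skin and those that lack it and project to muscle. The members were the 3 arrays whose sample titles name a saline paw injection and the 3 arrays whose titles name a saline muscle injection, which is 6 of the 15 arrays of the series. All 19938 genes with a probe set of 1 gene symbol were tested, each through the probe set that was brightest on average over the series.

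Every mouse was C57BL/6 and carried a green fluorescent reporter (GFP) driven by the promoter for the sensory peptide CGRP, calcitonin gene-related peptide, so the reporter was common to all groups. Neurons came from lumbar ganglia 2 to 5 of the injected side, measured over 26.9 µm, and held a retrograde tracer, wheat germ agglutinin coupled to a fluorophore, given 5 days before death into the gastrocnemius muscle or the saphenous nerve. The saline paw group was GFP-positive and traced to skin, and the saline muscle group was GFP-negative and traced to muscle. The remaining groups received complete Freund's adjuvant (CFA), an inflammatory emulsion, in paw or muscle, or acid in muscle. Target tissue, CGRP status, the injected site and the tracer site differed together between the saline groups and cannot be told apart. The labels call the 3 samples of a group biological replicates and do not give the number, age or sex of the mice behind a sample. The p-values and SEs rest on a spread between samples that is pooled over all 5 groups of the series.

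Sensory neurons that make CGRP and substance P are called peptidergic. They classically depend on nerve growth factor and signal tissue damage, and they release their peptides in the spinal cord and in the skin. Non-peptidergic neurons use the glial-derived growth factor receptors and include the neurons that express the Mas-related receptor Mrgprd and the itch neurons that make natriuretic polypeptide B. Large neurons also include muscle proprioceptors and rapidly conducting touch neurons, which are rich in neurofilaments. The reporter gene Calca was not analysed here. The sort could therefore be read only on related genes, which are given with their groups below.

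Values are log2 expression, and a difference is saline paw minus saline muscle, so that a value of 1 is a level 2 times that of muscle neurons. A gene is called where its limma p, adjusted by Benjamini-Hochberg over all 19938 genes, is under 0.05. In skin neurons 373 genes (1.87%) were higher and 34 genes (0.171%) were lower, while an unadjusted p under 0.05 was found for 3361 genes. The median difference over all genes was -0.02, with a median SE of 0.186. In 350 of the 407 called genes the SD was larger in saline paw than in saline muscle, which the pooled SE does not show. Of the higher genes 287 differed by more than 1, against 10 of the lower genes. Among the higher genes were the substance P precursor, the p75 receptor Ngfr, stem cell factor, serotonin and nicotinic receptors and the acid-sensing channel Asic3. Among the lower genes were Mrgprd, the kainate receptor Grik1, the interleukin 31 receptor and natriuretic polypeptide B.

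The arrays differed in the range of their signal. The SD over genes of an array was 1.42, 1.80 and 1.76 on saline paw replicates 1, 2 and 3, and 1.51, 1.45 and 1.34 on the saline muscle replicates. Saline paw replicate 1 lay within the muscle values, while the other skin arrays lay above every muscle array. The mean was 1.66 ± 0.206 (SD, n = 3) in skin and 1.43 ± 0.0823 (SD, n = 3) in muscle, a difference of 0.226 (exact permutation test, two-sided, p = 0.3, where the smallest possible p is 0.1). The CFA paw arrays ran from 1.66 to 1.74, above the CFA muscle arrays at 1.37 to 1.47. On the first principal component of all 15 arrays, which held 55.8% of the variance, saline paw replicate 1 was at -22.3 and the other saline paw arrays at 58.1 and 51.6. The saline muscle arrays were at -6.10, -16.3 and -38.6.

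The differences varied with expression level. Over the 10 equal groups of genes ranked by mean level, the median difference ran from -0.12 in the dimmest to 0.52 in the brightest, and 179 of the 373 higher genes fell in the brightest group. When each array was scaled to the same SD about its median, these medians were 0.13 and 0.05. The split of calls moved as well, from 373 higher and 34 lower to 207 and 75 with equal SD, 213 and 132 with quantile normalization, and 265 and 161 with cyclic loess. It was 164 higher and 206 lower with array SD as a covariate, and 104 higher and 58 lower on ranks within arrays. Higher genes outnumbered lower genes in 4 of these 5 scalings and not in the fit with the SD covariate. No scaling moved the median over all genes by more than 0.1.

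**Figure D1:**
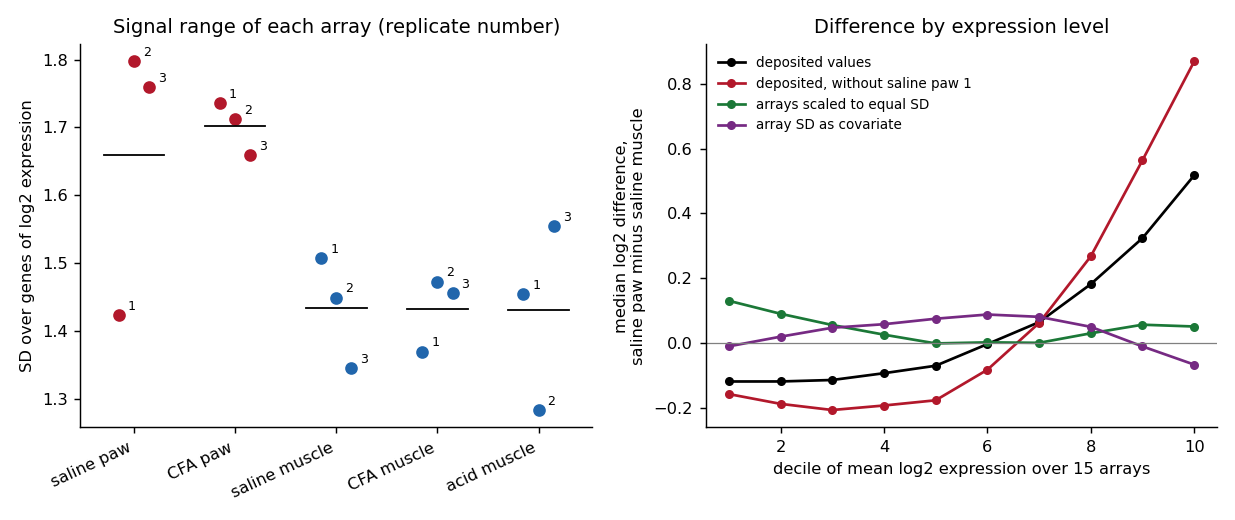
Left, the SD over genes of log2 expression for each array, with the replicate number beside each point and the group mean as a line. Right, the median log2 difference (saline paw minus saline muscle) in each of 10 equal groups of genes ranked by mean log2 expression, for the deposited values, the same without saline paw replicate 1, arrays scaled to equal SD, and the array SD as a covariate. Saline paw replicate 1, at 1.42, sits among the muscle arrays, and the median difference of the deposited values climbs to 0.52 in the brightest group.

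The number of genes called changed with single arrays. Without saline paw replicate 1 the fit called 3824 genes (2807 higher, 1017 lower), and all 373 higher and 34 lower genes were among them. Without saline paw replicate 2 or 3 it called 58 or 51 genes. The counts were 217, 110 and 111 without saline muscle replicate 1, 2 or 3. A fit of the 6 arrays alone, whose spread rests on 2 groups, called no gene in limma, with 1706 higher and 555 lower genes at an unadjusted p under 0.05 and a smallest adjusted p of 0.164. Saline paw replicate 1 was the skin array nearest to muscle in 353 of the 373 higher genes, and its median place was 45.2% of the way from the muscle mean to the mean of the other skin arrays. For the 34 lower genes it was nearest to muscle in 19, with a median place of 83.6%.

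Of the called genes, 78 higher (0.391% of all genes) and 11 lower (0.0552%) were also called in the same direction under all 5 scalings and had 3 skin arrays that did not overlap the 3 muscle arrays. Groups did not overlap in 1617 higher (8.11%) and 1407 lower (7.06%) of all genes and in 405 of the 407 called genes. In what follows, "under every scaling" means these 78 and 11 genes. Calls that held without each of the 6 arrays in turn numbered 45 higher and 4 lower, the latter Grik1, Mrgprd, Tceal9 and Nppb.

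Promoters of 4 genes that moved with the peptidergic and itch groups are shown because Tac1 and Scg2 were higher and Mrgprd and Nppb lower under every scaling. Each is the 250 bases before an annotated start, 5′ to 3′ on the gene's strand, from RefSeq on GRCm38.p6. The annotated span of Nppb begins at chr4:147985786, so the last part of its window, with the marked TATA box, lies inside that span. Capitals mark a match on either strand to the cyclic AMP response element (TGACGTCA), the TATA box (TATAAA) or the RUNX core (TGTGGT). These motifs do not overlap each other here.
Tac1, chr6:7554811-7555060, plus strand: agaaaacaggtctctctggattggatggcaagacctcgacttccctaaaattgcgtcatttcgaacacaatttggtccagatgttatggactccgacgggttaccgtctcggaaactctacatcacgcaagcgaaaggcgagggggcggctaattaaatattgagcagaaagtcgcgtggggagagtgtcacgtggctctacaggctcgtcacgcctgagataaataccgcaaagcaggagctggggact
Scg2, chr1:79440027-79440276, minus strand: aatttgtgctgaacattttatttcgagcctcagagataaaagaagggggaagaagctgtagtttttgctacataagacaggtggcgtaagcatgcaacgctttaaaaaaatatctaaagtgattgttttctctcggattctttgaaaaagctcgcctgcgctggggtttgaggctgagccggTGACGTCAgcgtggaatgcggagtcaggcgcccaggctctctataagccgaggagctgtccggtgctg
Mrgprd, chr7:145314585-145314834, plus strand: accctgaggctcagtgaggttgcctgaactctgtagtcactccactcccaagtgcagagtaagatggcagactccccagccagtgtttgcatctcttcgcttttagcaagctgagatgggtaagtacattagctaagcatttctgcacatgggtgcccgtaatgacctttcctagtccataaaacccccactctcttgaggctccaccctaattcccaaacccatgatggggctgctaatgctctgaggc
Nppb, chr4:147985650-147985899, plus strand: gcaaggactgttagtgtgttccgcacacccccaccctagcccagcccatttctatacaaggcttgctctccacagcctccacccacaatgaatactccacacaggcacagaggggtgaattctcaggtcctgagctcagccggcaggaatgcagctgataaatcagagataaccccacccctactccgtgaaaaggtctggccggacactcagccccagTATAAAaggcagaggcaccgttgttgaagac
Scg2 held a cyclic AMP response element 68 bases before its start and Nppb a TATA box 31 bases before the start used for its window. None of the 3 motifs was found in these windows of Tac1 and Mrgprd. The cyclic AMP response element lay in 9 of 412 promoters of higher genes (2.18%), 1 of 28 of lower genes (3.57%), 2.02% of the 19177 promoters of genes tested and 1.55% of all 32851 promoters. The RUNX core lay in 8.74% of higher, 7.14% of lower, 11.8% of tested and 14% of all promoters, and the TATA box in 7.04% of higher, 10.7% of lower, 2022 of the 19177 tested and 12.4% of all promoters. These shares were not tested. Promoters were matched for 295 of the 373 higher and 26 of the 34 lower genes. Tac1 and Scg2 had 17 and 13 CG pairs in the window and Nppb and Mrgprd 5 and 2, against a median of 6 over all promoters and 11 over promoters of genes tested. A match is a run of letters only and says nothing on binding.

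Of 29 peptide and granin genes measured, 5 were called higher in skin neurons and 1 lower. Tac1, the precursor of substance P and neurokinin A, read 7.05, 8.15 and 8.49 in saline paw replicates 1 to 3 and 6.34, 5.79 and 5.70 in the muscle replicates. Every skin array lay above every muscle array, and replicate 1 was the lowest skin array. The difference was 1.95 (SE 0.294, adjusted p = 0.00505), or 3.88-fold. Adcyap1, which encodes the vasodilator peptide PACAP, read 5.65, 6.22 and 6.85 against 5.03, 4.23 and 4.55 and was 1.64 higher (SE 0.268, adjusted p = 0.00728). Scg2, a granin of dense-core vesicles, read 5.42, 6.67 and 6.78 in skin and 4.48, 4.66 and 3.46 in muscle. These groups too did not overlap, and the difference was 2.09 (SE 0.331, adjusted p = 0.00688).

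The beta form of CGRP, Calcb, is the nearest measured gene to the sorting reporter. It read 6.28, 7.60 and 7.76 in skin and 5.93, 6.25 and 5.87 in muscle, so that skin replicate 1 exceeded the highest muscle array by little. Its difference of 1.19 (SE 0.285, adjusted p = 0.0464) kept its sign but was not called under any of the 5 scalings. Vgf, a neurotrophin-induced secretory peptide, was 0.85 higher (adjusted p = 0.0114). Of the 5 scalings only the SD covariate called it, and on ranks it was at 0.40 and not called. Over the 29 peptide and granin genes 15 differences were positive, and the 5 scalings called 3 to 4 genes higher and 3 lower. The median difference of 0.18 became -0.06 with equal SD, -0.12 with quantile normalization and -0.08 with cyclic loess.

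The lower peptide gene was Nppb, natriuretic polypeptide B, the transmitter of itch neurons. It read 2.67, 2.56 and 2.58 in skin and 3.48, 3.88 and 3.53 in muscle, a difference of -1.02 (SE 0.143, adjusted p = 0.004). Its 3 skin values were close together and near the dim limit of 2.45, the level under which 95% of olfactory and vomeronasal receptor genes fell.

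Receptors for growth factors and guidance cues were among the largest differences. Ngfr, the low-affinity neurotrophin receptor p75, read 8.28, 9.76 and 9.60 in skin and 6.42, 6.54 and 6.21 in muscle. The lowest skin array exceeded the highest muscle array, and the difference was 2.83 (SE 0.317, adjusted p = 0.00108), or 7.09-fold. Kit, the stem cell factor receptor, read 5.38, 6.46 and 7.05 against 4.28, 3.65 and 3.76 and was 2.40 higher (SE 0.329, adjusted p = 0.00336). Gfra3, the artemin co-receptor, was 2.07 higher and Plxna4, a semaphorin co-receptor, 2.06 higher, both under every scaling.

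Ret, the signalling subunit for glial-derived factors, read 7.65, 8.89 and 8.5 in skin and 8.27, 8.54 and 7.91 in muscle, with a difference of 0.11 (adjusted p = 0.882) on overlapping arrays. It turned to -0.62 with equal SD (adjusted p = 0.0507), -0.77 with quantile normalization (adjusted p = 0.0211) and -0.75 with cyclic loess (adjusted p = 0.0229), so that its direction hangs on the scaling. Ntrk2 differed by -0.07 and Ntrk3, the receptor for neurotrophin 3, by 1.15 (adjusted p = 0.155). Without saline paw replicate 1 Ntrk3 was at 1.53 and was called (adjusted p = 0.0137). Of 26 growth factor and cytokine receptors measured, 4 were higher and 1, Il31ra, was lower, and the 5 scalings called 4 higher and 2 to 4 lower. Their median was 0.05, and -0.13 with equal SD.

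Serotonin receptors supplied the smallest p of the comparison. Htr3a, the channel-forming subunit of the 5-HT3 receptor, read 6.48, 7.68 and 8.15 in skin and 4.06, 4.14 and 4.35 in muscle. The groups were 2 or more units apart throughout, and the difference was 3.25 (SE 0.313, adjusted p = 0.000941), or 9.52-fold. Htr1b, a receptor coupled to inhibition of cyclic AMP, read 4.96, 6.13 and 6.09 against 3.43, 3.09 and 3.23 and was 2.48 higher (SE 0.353, adjusted p = 0.0042). Of 14 serotonin receptor genes measured these were the 2 called, while the median of the list was -0.09. Nicotinic subunits showed the same split, with Chrna7 2.02 higher, Chrnb4 1.83 higher and Chrna3 1.76 higher among 25 GABA, glycine and nicotinic genes with a median of -0.01. Of these 3 subunits Chrna3 was not called with the SD covariate or on ranks.

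Among 39 other transmitter and peptide receptors, 5 were higher and none lower, with a median of 0.11. Prokr2, a prokineticin receptor, was 2.09 higher (adjusted p = 0.00108), Ptger1, a prostaglandin E2 receptor, 1.69 higher and Npy1r, a neuropeptide Y receptor, 1.47 higher, all 3 under every scaling. Ptgir, the prostacyclin receptor, was 1.41 higher and called in 4 of the 5 scalings. Oprd1, the delta opioid receptor, read 4.82, 4.68 and 4.41 against 4.06, 3.66 and 3.93 and was 0.75 higher (adjusted p = 0.0439). Here skin replicate 1 was the highest skin array. Of the 5 scalings only the SD covariate called the gene, and with equal SD it was at 0.64 (adjusted p = 0.137).

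Of 14 purinergic receptors none was called in limma and 4 had an unadjusted p under 0.05. Their median was -0.09. The groups did not overlap in 2 higher and 2 lower genes (14.3% each), against 8.11% and 7.06% of all genes. P2rx3, the ATP-gated channel of non-peptidergic neurons, read 6.22, 7.46 and 7.36 in skin and 7.06, 7.51 and 6.78 in muscle. The arrays overlapped, and the difference was -0.10 (adjusted p = 0.893). It was called lower with quantile normalization at -0.74 (adjusted p = 0.0253), with cyclic loess and with the SD covariate, and not with equal SD at -0.67 (adjusted p = 0.108) or on ranks.

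Mrgprd, a receptor of neurons that end in the epidermis, was lower in the skin neurons. It read 4.99, 5.55 and 5.43 in skin and 7.47, 7.43 and 6.75 in muscle, a difference of -1.90 (SE 0.232, adjusted p = 0.00143), or 0.269 of the muscle level. All skin arrays lay more than 1 unit under all muscle arrays, and replicate 1 was the lowest skin array. Grik1, a kainate-type glutamate receptor subunit, read 4.54, 5.51 and 4.70 in skin and 7.02, 7.45 and 6.59 in muscle. The groups were again apart, by -2.10 (SE 0.321, adjusted p = 0.00556), the most negative difference among called genes. It was the 1 called of 22 glutamate receptor genes, whose median was 0.14. Il31ra, the interleukin 31 receptor of itch neurons, read 3.30, 3.75 and 3.63 against 4.65, 5.61 and 4.64, a difference of -1.41 (SE 0.266, adjusted p = 0.0163).

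Other members of the Mas-related family went the opposite way. Mrgpra3, the chloroquine receptor, read 4.75, 6.40 and 6.11 in skin and 4.06, 4.49 and 3.87 in muscle, and was 1.62 higher (adjusted p = 0.0265). Mrgprx1 was 1.47 higher (adjusted p = 0.0455) and was called in 1 of the 5 scalings, against 3 for Mrgpra3. Of 25 Mas-related and itch receptors, 3 were higher, with the orphan receptor Gpr149 the third at 1.68, and 2 were lower, with a median of -0.08. Sequence similarity within this family could let probe sets share signal, and this was not tested.

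Acid sensing was led by Asic3. This proton-gated channel, a long-studied sensor of muscle acidosis, read 6.56, 7.80 and 8.23 in skin and 5.47, 4.81 and 4.95 in muscle. Skin arrays were all above muscle arrays, by 2.46 on average (SE 0.347, adjusted p = 0.0042), or 5.49-fold. Trpv1, the heat and capsaicin channel, read 5.40, 6.80 and 7.02 in skin and 4.97, 5.40 and 4.60 in muscle, where skin replicate 1 and muscle replicate 2 nearly met. It was 1.42 higher (adjusted p = 0.0479) and not called under any scaling. The leak potassium channels Kcnk4, at 1.41, and Kcnk10, at 1.00, were also called higher, but Kcnk10 was not called with the SD covariate or on ranks.

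Piezo2, the main touch and proprioception channel, read 6.56, 7.52 and 7.15 in skin and 7.30, 7.32 and 6.47 in muscle, a difference of 0.04 (SE 0.297, adjusted p = 0.953). These arrays overlapped fully, and the difference turned to -0.49 with equal SD, which was not called. Of 45 mechanically gated and sensory channels, 4 were higher and none lower, and the median was 0.04. The 5 scalings called 2 to 3 of them higher and 0 to 2 lower.

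Potassium channel genes had 8 of 51 members higher and none lower, with a median of 0.19. The 5 scalings called 5 to 7 higher and 2 to 3 lower. Kcnip2 and Kcnip4, which bind A-type channels, were at -1.01 and -0.35 as deposited and were not called there. Under all 5 scalings they were called lower, at -1.24 and -0.96 with equal SD. Kcnv1, a silent subunit that modifies other channels, read 4.43, 6.01 and 6.15 in skin and 3.11, 2.89 and 2.53 in muscle. The groups did not overlap, and the difference was 2.68 (SE 0.362, adjusted p = 0.00297). Kcnmb1, a subunit of calcium-activated channels, was 2.04 higher, Kcnq5, an M-type channel, 1.99 higher and Kcnd1, an A-type channel, 1.53 higher, all under every scaling. Of 21 calcium and HCN channel genes 3 were higher, including Cacna2d2 at 1.55 and Cacna1e, the R-type calcium channel, at 1.11, with a list median of 0.41.

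No voltage-gated sodium channel was called by limma among 12 measured, 2 of which had an unadjusted p under 0.05. Their median was 0.44 and 0.08 with equal SD. Scn10a, the nociceptor channel Nav1.8, read 7.82, 9.40 and 9.41 in skin and 7.83, 8.16 and 7.27 in muscle. Skin replicate 1 lay inside the muscle values, and the difference was 1.13 (adjusted p = 0.139). Without saline paw replicate 1 Scn10a was at 1.65 and was called (adjusted p = 0.00129 in limma), in a fit that called 14.1% of all genes higher. Scn11a, or Nav1.9, had a difference of -0.52 (adjusted p = 0.463) on the deposited values and was called lower under all 5 scalings, at -1.17 with equal SD. Scn11a is described with the non-peptidergic genes and was chosen after its values were seen.

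**Figure D2:**
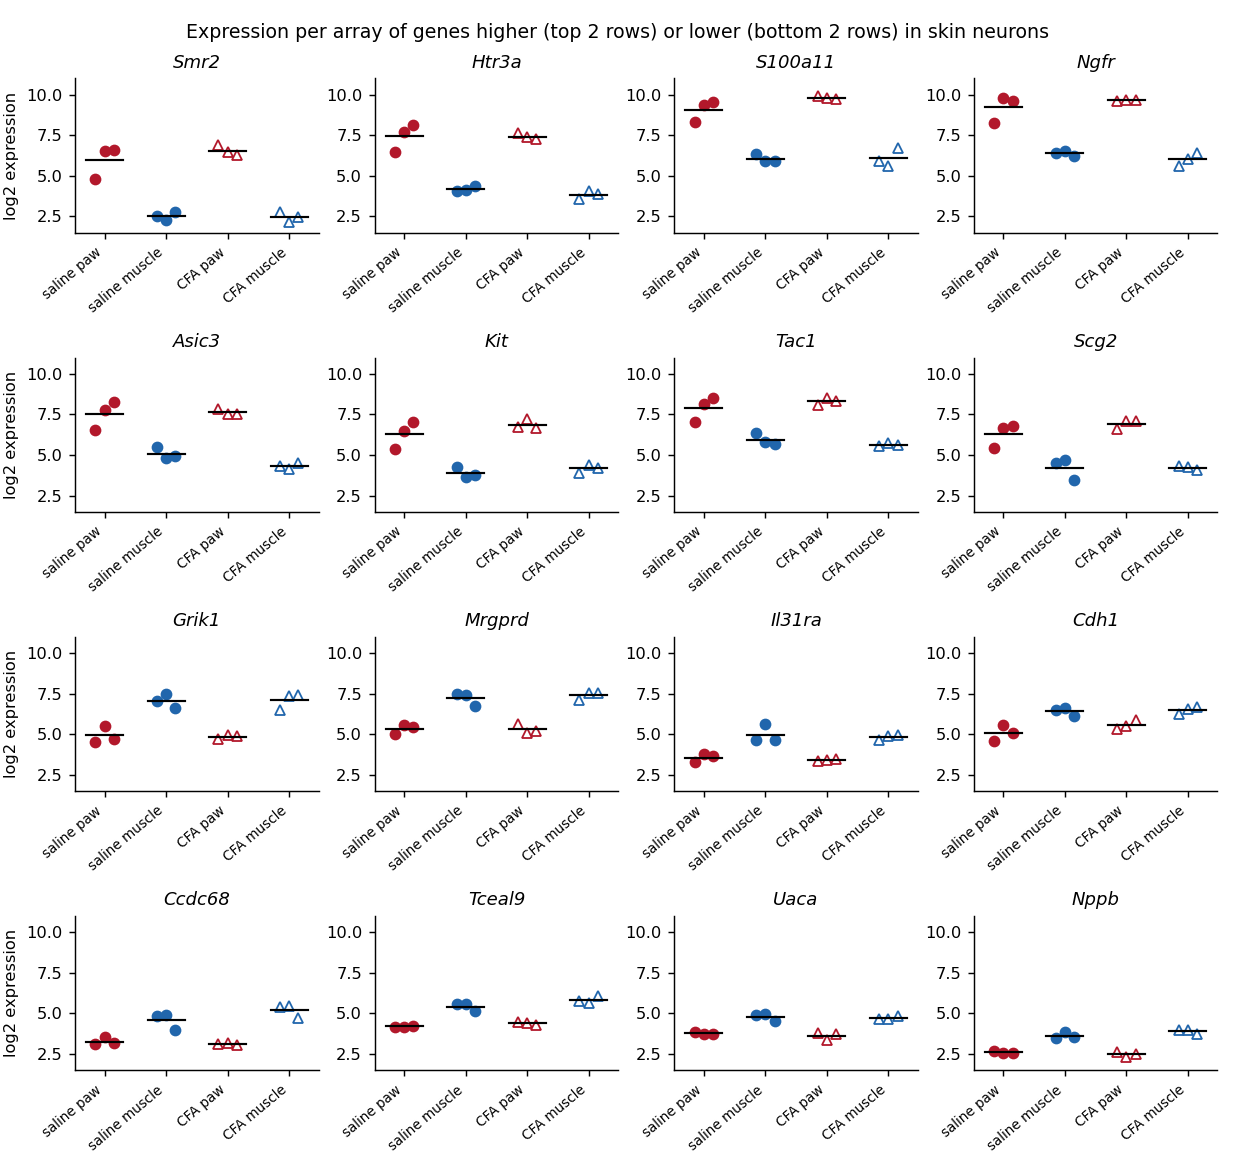
Log2 expression of 16 named genes on each saline paw, saline muscle, CFA paw and CFA muscle array (points, in replicate order) with the mean of each group of 3 as a line. The 8 genes of the top rows, from Smr2 to Scg2, sit higher on skin arrays, and the 8 of the bottom rows, from Grik1 to Nppb, sit lower. Saline paw replicate 1 is the lowest skin point of every gene in the top rows.

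S100a11, a calcium-binding protein, read 8.31, 9.36 and 9.57 in skin and 6.32, 5.92 and 5.89 in muscle, and was 3.04 higher (SE 0.357, adjusted p = 0.00121), or 8.22-fold. Of 34 calcium-binding genes 8 were higher and none lower, and the median of 0.67 fell to 0.22 with equal SD. The 5 scalings called 3 to 7 of them higher and 1 to 3 lower, Syt1 among the lower. Gap43, a growth cone protein, was 2.31 higher and Mapt, the microtubule protein tau, 1.37 higher, both under every scaling. Among 46 filament and cytoskeleton genes 9 were higher and none lower, with a median of 0.85 that became 0.18 with equal SD and 0.08 with quantile normalization. The scalings called 2 to 5 of these higher and 1 lower, which was Ina, a neurofilament protein, at -0.45 as deposited and -0.80 with equal SD. Prkca, Syt1, Kcnip2, Kcnip4 and Ina were chosen after their values were seen.

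Nefh, the heavy neurofilament of large axons, was 1.69 higher in skin (adjusted p = 0.0071). It read 10.51, 11.24 and 11.03 against 9.76, 8.97 and 9.0, so that the groups did not overlap. Yet of the 5 scalings only the SD covariate called it, and its difference was 0.74 with equal SD. Tubb4a, a tubulin, was 1.96 higher (adjusted p = 0.00108) and was called in 3 scalings. Peripherin, Prph, read 8.07, 9.16 and 9.11 against 8.37, 8.27 and 8.04, a difference of 0.56 (adjusted p = 0.25) that was -0.20 with equal SD. Without saline paw replicate 1 Prph was at 0.91 and was called on the deposited values (adjusted p = 0.00214 in limma). With equal SD it was then at -0.19.

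Adhesion and axon guidance genes had 14 of 89 members higher and 1 lower, with a median of 0.18. The 5 scalings called 3 to 9 higher and 3 lower. Called under every scaling, which also asks for a call on the deposited values and groups that do not overlap, were 2 higher and 1 lower. Thy1, a surface glycoprotein of neurons, read 8.87, 10.01 and 10.05 in skin and 7.24, 6.63 and 6.91 in muscle. The difference was 2.71 (SE 0.417, adjusted p = 0.00564), with the groups apart. The lower gene was Cdh1, or E-cadherin, an adhesion molecule of epithelia and of some sensory neurons. It read 4.56, 5.54 and 5.08 against 6.47, 6.62 and 6.12, a difference of -1.34 (SE 0.254, adjusted p = 0.0164) under every scaling.

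Transmitter release genes had 6 of 40 members higher and none lower, with a median of 0.61 that was 0.21 with equal SD. The 5 scalings called 1 to 4 of them higher and 1 to 2 lower. Syt1, a calcium sensor of vesicle release, was called lower under all 5 scalings, at -1.24 with equal SD, but not on the deposited values. Cplx2, a complexin that clamps vesicle fusion, was 1.63 higher under every scaling, while Napb at 1.59 and Syn2 at 1.04 were called in none. Signalling genes around G proteins had 7 of 61 higher, led by Prkcb, a protein kinase C, at 2.29 (adjusted p = 0.00121), and none lower. The 5 scalings called 3 to 5 of the 61 higher and 4 to 8 lower. Prkca, another protein kinase C, was at -0.56 as deposited and was not called there. Under all 5 scalings it was called lower, at -1.05 with equal SD. Transcription factors of sensory neurons had 3 of 52 higher, namely Nfib at 1.80, Nfia at 1.63 and Bcl11a at 0.97, with a median of 0.34. The scalings called 1 to 3 higher and 0 to 1 lower, and only Nfia was called under every scaling. Nfib was not called with the SD covariate or on ranks. Its other probe set, near the dim limit at a mean of 2.50, differed by 0.43. Runx1 and Runx3, which mark non-peptidergic neurons and proprioceptors, differed by -0.31 and 0.03, with overlapping arrays and adjusted p of 0.63 and 0.967.

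Smr2, a secreted submaxillary gland protein also found in peptidergic neurons, had the largest difference of all called genes. It read 4.78, 6.55 and 6.59 in skin and 2.49, 2.31 and 2.75 in muscle, a difference of 3.46 (SE 0.441, adjusted p = 0.00213), or 11-fold. Its muscle values lay around the dim limit of 2.45. Outside the lists, Tmem100, a membrane protein that modifies TRP channels, was 2.92 higher, Gpx3, a secreted glutathione peroxidase, 2.85 higher and the membrane protein Tmem176b 2.58 higher.

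Lower genes outside the lists were smaller in number and in size. Tceal9 read 4.18, 4.14 and 4.24 in skin and 5.57, 5.55 and 5.12 in muscle, a difference of -1.23 (SE 0.186, adjusted p = 0.00544). Its skin arrays, replicate 1 included, were close together and under every muscle array. Ccdc68 differed by -1.34, Uaca by -1.03 and Serping1, the C1 complement inhibitor, by -1.54, each under every scaling. Serping1 read 4.27 on skin replicate 1 and 5.90 and 5.69 on the other skin arrays, so its difference was largest on the array that stood apart. Of the 34 lower genes, 13 were under the dim limit in skin, against 8 of the 373 higher genes in muscle.

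Marker genes of peptidergic nociceptors had the highest median of the lists. Of 16 measured, 9 were called higher and none lower, and 7 were higher under every scaling, namely Smr2, Kit, Gfra3, Tac1, Tafa1, Cpne4 and Adcyap1. The list's median was 1.53, and 1.19, 1.15 and 1.19 with equal SD, quantile normalization and cyclic loess, against -0.02 for all genes. It was 1.07 with the SD covariate and 0.93 on ranks. Markers of non-peptidergic and itch neurons had the lowest, with a median of -0.74 over 22 genes, 4 lower and 2 higher. Under the scalings the median ran from -0.86 to -0.91 with equal SD, quantile normalization and cyclic loess. It was -0.87 with the SD covariate and -0.78 on ranks, and 9 to 11 members were called lower in each of the 5.

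Of those markers 5 were lower under all 5 scalings but not on the deposited values, namely Cd55, Gfra2, Tmem79, Scn11a and Plcb3, which were chosen after their values were seen. Gfra2, the neurturin co-receptor, read 5.64, 7.07 and 6.51 in skin and 7.23, 7.59 and 6.98 in muscle. These arrays overlapped by a narrow margin, and the difference of -0.86 (adjusted p = 0.169) became -1.40 with equal SD (adjusted p = 0.00484). Cd55, a complement regulator, had a difference of -1.12 and -1.71 with equal SD. Over all genes 35 (0.176%) had this pattern, all of them lower in skin, and in 13 of the 35 the deposited values of the groups did not overlap.

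Pvalb, the parvalbumin of proprioceptors, read 4.95, 5.11 and 4.96 in skin and 5.41, 3.93 and 5.04 in muscle, a difference of 0.22 (adjusted p = 0.838) that was -0.01 with equal SD. Muscle replicate 2 was the array that stood apart. Of 26 proprioceptor and large myelinated markers 24 had positive differences, with a median of 0.45 and 0.23 with equal SD. Called higher were 2, Nefh and Fxyd7, and none was called lower, while the scalings called 0 to 1 higher and 0 to 1 lower. In 8 of the 26 (30.8%) every skin array lay above every muscle array, against 8.11% of all genes, and with saline paw replicate 1 left out 11 of the 26 were called higher (42.3%, against 14.1% of all genes). Markers of C-fibre touch neurons had a median of -0.44 over 9 genes, none called in limma and 4 with an unadjusted p under 0.05. The muscle group, labelled as large CGRP-negative neurons, carried Mrgprd, Grik1 and Il31ra, genes of non-peptidergic small-fibre and itch neurons, above the skin group. Mrgpra3 and Mrgprx1, which belong to the same marker list, went the other way and were called higher in the skin group.

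**Figure D3:**
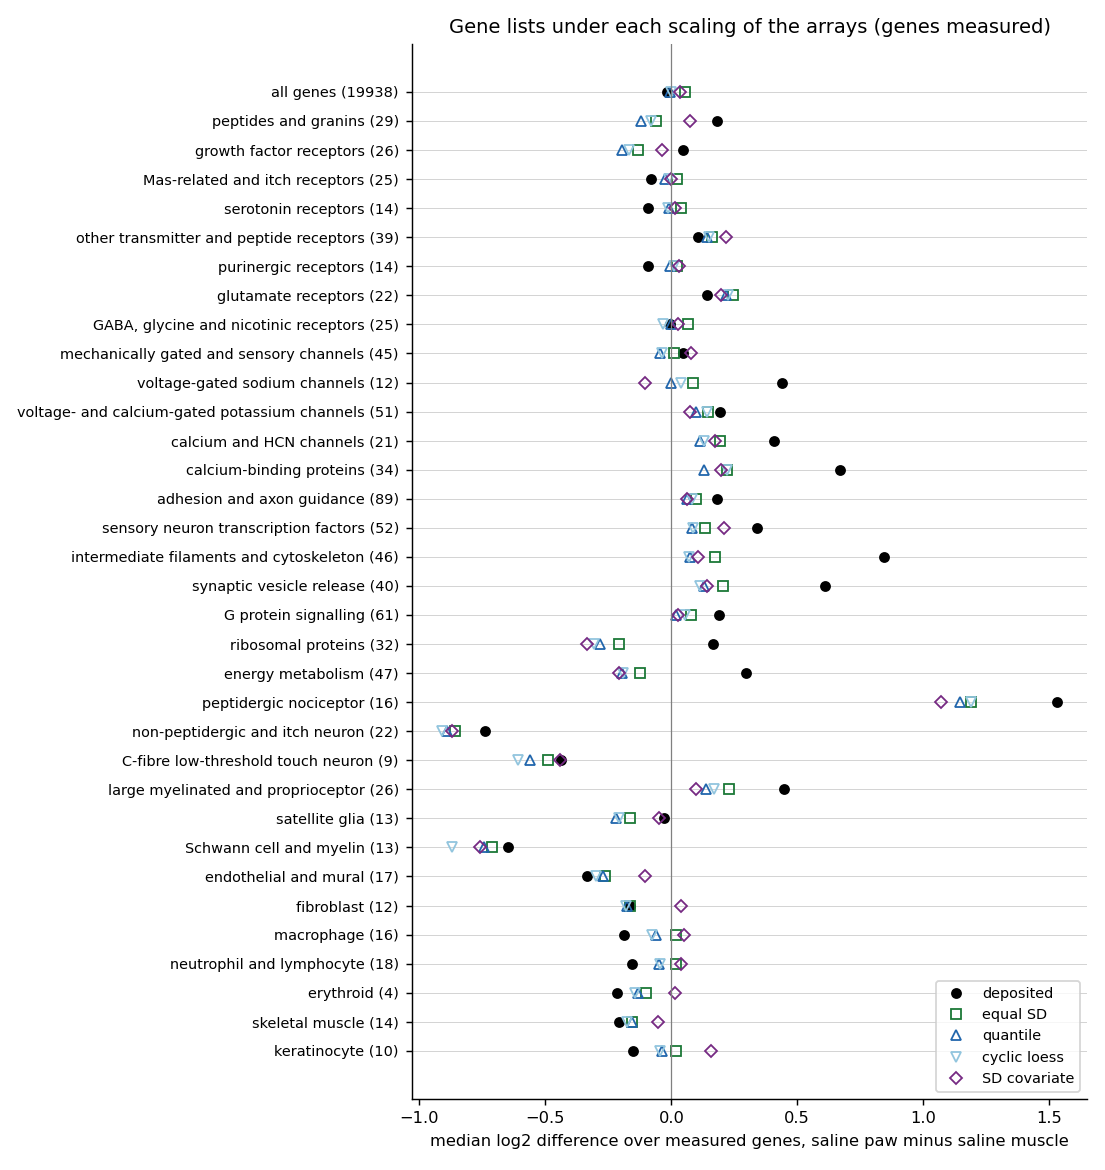
Median log2 difference (saline paw minus saline muscle) over the measured genes of each of 33 lists and of all genes, for the deposited values and 4 scalings of the arrays, with the number of genes in parentheses. The peptidergic list, at 1.53 on the deposited values, stays over 1 under each scaling plotted, and was 0.93 on ranks, which are not plotted. The non-peptidergic list, at -0.74, stays under -0.7, while most lists of channels, cytoskeleton and synaptic genes move toward 0.

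Without saline paw replicate 1 the background of calls rose to 14.1% higher and 5.10% lower, and list counts rose with it. The peptidergic list then had 11 of 16 higher, the non-peptidergic list 10 of 22 lower and 2 higher, the cytoskeleton list 36 of 46 higher and the sodium channels 6 of 12 higher. These counts were added after the data were seen.

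Markers of other cells that a sort can hold moved with the groups in part. Of 13 Schwann cell and myelin genes none was called in limma and 0 had an unadjusted p under 0.05. In 6 of them (46.2%) the skin arrays lay under all muscle arrays, against 7.06% of all genes. The median was -0.65 (-0.71 with equal SD). Their mean level was 4.15, 4.05 and 4.04 on the skin arrays and 5.04, 4.54 and 4.51 on the muscle arrays, which did not overlap. Mbp, the myelin basic protein, was at 4.77 ± 0.13 (SD, n = 3) in skin and 5.65 ± 0.50 (SD, n = 3) in muscle (adjusted p = 0.421). Their part in the lower genes was not tested.

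Satellite glia genes had a median of -0.03 over 13 genes, none called and 3 with an unadjusted p under 0.05, and their mean level ran from 5.01 to 5.61 in skin and from 5.13 to 5.57 in muscle. Of the 13 differences 5 were positive, and they ran from -0.90 to 0.88. Fabp7 and Apoe, glial genes named after their values were seen, were at 0.68 and 0.77, neither called. Endothelial and mural genes had a median of -0.34 over 17 genes, with mean levels of 2.77 to 3.16 in skin and 3.05 to 3.40 in muscle. Medians were -0.17 for 12 fibroblast, -0.19 for 16 macrophage, -0.16 for 18 neutrophil and lymphocyte, -0.22 for 4 erythroid, -0.21 for 14 skeletal muscle and -0.15 for 10 keratinocyte genes, with none called by limma in any of these lists. Unadjusted p under 0.05 numbered 2 in the endothelial, 1 in the fibroblast, 1 in the macrophage, 4 in the neutrophil and lymphocyte and 4 in the skeletal muscle list, and 0 in the remaining lists. Of the macrophage genes 11, and of the neutrophil and lymphocyte genes 11, were under the dim limit in both groups. In bulk arrays fewer cells of a type and less RNA per cell cannot be told apart.

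Housekeeping lists changed sign with the scaling. Ribosomal protein genes had a median of 0.17 over 32 genes, none called in limma and 5 with an unadjusted p under 0.05, and -0.21, -0.28 and -0.31 with equal SD, quantile normalization and cyclic loess. Energy metabolism genes had 1 of 47 higher, Aldoa at 1.41, and a median of 0.30 that turned to -0.12, -0.20 and -0.19. Of the 5 scalings only the SD covariate called Aldoa, and with equal SD it was at 0.49 (adjusted p = 0.147). The scalings called 0 to 1 of the 47 higher and 1 to 4 lower.

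The CFA arrays carry the same kinds of neuron on 6 separate arrays, with an injection of CFA in place of saline. There 1146 genes were higher in skin neurons (5.75%) and 133 lower (0.667%), or 6.41% in all. Of the 373 higher genes after saline, 329 were also called higher there, which is 88.2% of the saline list and 28.7% of the CFA list, and 371 had the same sign. Their median difference was 1.30 after saline and 1.5 after CFA. Of the 34 lower genes 9 were called lower, 26.5% of the saline list and 6.77% of the CFA list, all 34 had the same sign, and the median went from -0.85 to -0.48. Of the genes called under every scaling, 76 of the 78 higher and 8 of the 11 lower were called there too. The mean signal range was wider on skin arrays in both comparisons, by 0.226 after saline and 0.270 after CFA. In the brightest of the 10 groups of genes the median difference was 0.52 after saline and 0.70 after CFA. The part of this range in the shared signs was not tested, and the share of all genes with the same sign is not given here.

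The largest differences were present on these arrays too. After CFA, Smr2 differed by 4.11, Ngfr by 3.63, Htr3a by 3.58, Asic3 by 3.32, Mrgprd by -2.11 and Grik1 by -2.24, and each was called. Oprd1 was at -0.05 (adjusted p = 0.895), and Bcs1l, a mitochondrial assembly factor chosen after its values were seen, was at 0.20 (adjusted p = 0.557) against 1.11 after saline. The test of the change itself, the skin minus muscle difference after CFA less that after saline, called no gene in limma, with 325 at an unadjusted p under 0.05 and a median SE of 0.263. Adcyap1 was at 3.24 after CFA against 1.64 after saline, a change of 1.60 with an unadjusted p of 0.000808 in limma, and was not called.

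**Figure D4:**
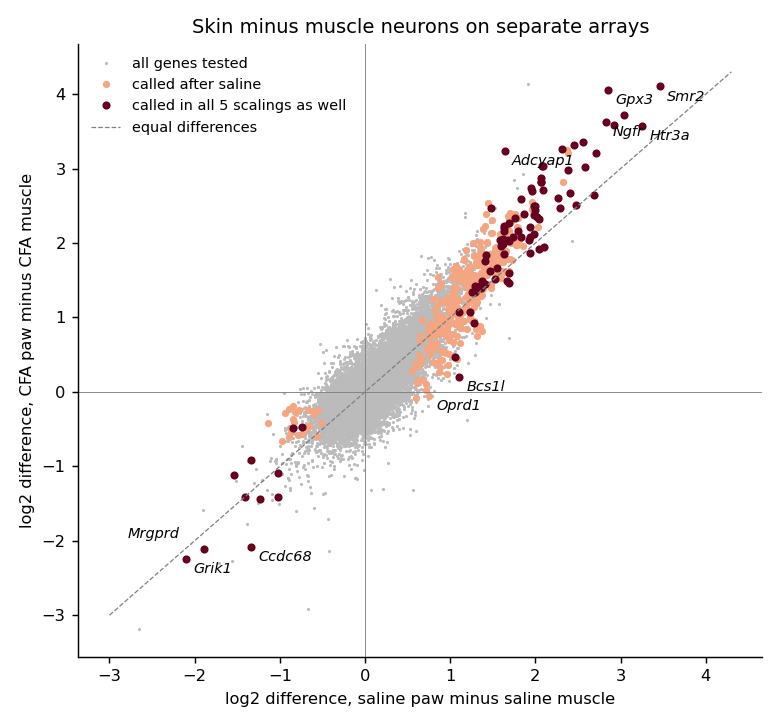
Log2 difference of skin minus muscle neurons after saline (horizontal) and after CFA (vertical) for 19938 genes on separate arrays, with the dashed line where both are equal. Orange points are the genes called after saline and dark points those of them called under every scaling. Of the 373 higher genes 371 lie above 0 on both axes, and all 34 lower genes lie below 0 on both.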

How the data were processed

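RNA of sorted neurons was measured on Affymetrix whole-transcript arrays from 50 ng per sample, per the labels. The authors deposited a log2 value per probe set. RMA and Partek stand in the submitters' processing notes without versions, and the log base was inferred from the range of the values. Of 35556 probe sets, 21789 had 1 gene symbol in the platform annotation, 1621 had several and 12146 had none. The 21789 gave 19938 genes, of which 999 had more than 1 probe set.

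The tests were run in R 4.3.3 with limma 3.58.1. One linear model with 5 group means took in all 15 arrays, with 10 residual and 4.325 prior degrees of freedom, and two-sided p-values were adjusted by Benjamini-Hochberg over all genes. The members, the 33 gene lists (852 of 942 genes measured) and the rule for named genes were chosen with earlier results of these data known. Named genes are the 15 largest called differences in each direction, up to 5 called members per list and direction, the 10 largest in each direction among genes called under every scaling, and a set of check genes. The labels do not say whether replicate numbers pair the samples, and the main fit did not use them as pairs. Correlations of the deviations of equal replicate numbers between the saline groups were -0.50, 0.15 and -0.45. With 3 samples a group these cannot decide whether samples were paired. The scripts were tested on simulated data. The number of arrays limits the precision.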

Additional observations from a re-analysis of the deposited data

How the results depend on the processing

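The saline comparison called 407 genes and the CFA comparison 1279. With a fit of only the arrays compared these counts were 0 and 3209, with array weights 7379 and 4054, and with ranks 162 and 416. The array weights were 0.148, 0.959 and 7.18 for saline paw replicates 1, 2 and 3, so the weighted saline paw mean rested mostly on replicate 3. Centring the array medians gave 199 genes for saline. Equal SD, quantile normalization and the SD covariate gave 846, 695 and 444 genes for CFA. An adjusted p under 0.01 gave 86 and 425, an adjusted p under 0.1 gave 896 and 2067, and a log2 difference over 1 as well gave 844 for CFA. Leaving out 1 array gave 51 to 3824 genes for saline, 527 to 832 for CFA and 0 to 1 for the difference between them, the 1 without CFA muscle replicate 1. Chosen after seeing the data, settings without saline paw replicate 1 gave 1330 genes with equal SD, 118 with the SD covariate and 3285 with only the arrays compared. With the replicate number as a block the saline comparison called 316 genes and the CFA comparison 1144.

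Of 86 named genes called, none reversed in any setting, and none was called in all, since the fit of the 6 arrays called no gene. That fit was the only loss for 20 of them, 18 higher and 2 lower, over 21 settings. Of the named genes not called, Ret was -0.62 with equal SD, -0.77 with quantile normalization, -0.75 with cyclic loess, -0.61 with the SD covariate and -0.45 on ranks. Piezo2 was -0.49, -0.56, -0.61, -0.44 and -0.39 in the same order, and Pvalb -0.0057, -0.065, -0.076, -0.23 and -0.047. Prph was -0.20, -0.41 and -0.32 in the first 3 and -0.24 on ranks. Runx3 was -0.023 with cyclic loess, and array weights gave -0.39 for Runx3, 0.19 for Ntrk2 and 0.11 for P2rx3. Leaving out 1 array in turn gave -0.33 to 0.31 for Ntrk2, -0.16 to 0.46 for Ret, -0.29 to 0.30 for Runx3, -0.33 to 0.29 for P2rx3, -0.24 to 0.30 for Piezo2 and -0.21 to 0.52 for Pvalb. Without saline paw replicate 1, equal SD gave -0.59 for Ret, -0.29 for Runx3, -0.053 for Pvalb, -0.19 for Prph and -0.46 for Piezo2. The SD covariate gave -0.75 for Ret, -0.31 for Runx3, -1.24 for Pvalb and -0.42 for Piezo2, and only the arrays compared gave 0.31 for Ntrk2, -0.29 for Runx3 and 0.29 for P2rx3. The cause was not tested for any of these. Of 18 called genes with another probe set, that probe set had the opposite sign in 2, Mapk10 and Usp31. The range of signal differed by 0.158 to 0.345 when 1 array was left out.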

Other observations

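Ptk2b, a calcium-activated tyrosine kinase, was higher in skin neurons at 2.38 (adjusted p = 0.00545 in limma), and so were the calmodulin kinase genes Camk2g at 1.69 and Camk2b at 0.96. Camk2b was not called on ranks (adjusted p = 0.111). Prkca, a calcium-dependent kinase, was called lower under all 5 scalings but not on the deposited values. Cyclic nucleotide phosphodiesterases Pde2a, at 1.47, and Pde8b, at 1.35, were higher under every scaling. Pcp4l1, a calmodulin-binding peptide gene, read 7.92, 9.20 and 9.14 on the saline paw arrays and 6.18, 6.25 and 6.17 on the saline muscle arrays, with the groups apart. Ahnak, a large scaffold protein, was lower in skin neurons at -0.85 (adjusted p = 0.0445).

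Some large differences that missed the threshold were lower in skin neurons, and the genes given here were chosen after their values were seen. Near misses lay on both sides. At an adjusted p under 0.1 in limma 776 genes were higher and 120 lower, against 373 and 34 under 0.05. Ogn, a matrix proteoglycan, differed by -2.65 (adjusted p = 0.145 in limma) and Prkcq, a protein kinase C, by -1.71 (adjusted p = 0.054), with Prkcq called under all 5 scalings. Acpp, the acid phosphatase that marks non-peptidergic neurons, read 5.51, 6.97 and 6.54 in skin and 7.68, 8.21 and 7.05 in muscle, a difference of -1.30 (adjusted p = 0.0885) and -1.86 with equal SD (adjusted p = 0.0018).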
